A study of Mus musculus with 9 samples.

Results

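The 31 protein-coding genes of the semaphorin, plexin and neuropilin families, out of 21951 protein-coding genes in the mouse annotation, were examined for HOXA13 and HOXD13 binding in the distal forelimb. They were selected by symbol alone and comprise 20 semaphorins, 9 plexins and 2 neuropilins. Each gene was given a window of the gene body and 50 kb on either side, and an interval of a deposited peak list was assigned to a gene when 1 of its summits lay in that window. The 31 windows covered 6.98 Mb together. The Sema3b and Sema3f windows overlap and shared 7 sites, which are counted for both genes. Windows also take in other genes, so a site in a window is not by itself a site of the named gene, and leading sites nearest to the coding start of another gene are named with that gene.

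Semaphorins are guidance ligands, either secreted (class 3) or held at the membrane (classes 4 to 7). Plexins are their main signalling receptors, and neuropilins are co-receptors that most class 3 ligands need to engage A-type plexins. Nrp1 also binds VEGF. In the limb, class 3 semaphorins and neuropilins are known for steering motor and sensory axons and for shaping the vasculature, and Sema3e acts on endothelial cells through Plxnd1. HOXA13 and HOXD13 are the posterior HOX transcription factors of the developing autopod, the future hand and digits.

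CUT&RUN, in which antibody-tethered nuclease releases the DNA around a bound protein, had been performed on distal forelimb cells of B6CBAF1 embryos, each library from a pool of cells of individual embryos. Wild-type (wt) E12.5 forelimbs gave 3 HOXA13 and 3 HOXD13 libraries, of which HOXD13 replicate 3 is described as a reanalysis of an earlier sample. The II1TDOM 542 line carries, on both chromosomes, a single copy of the II1 limb enhancer with an HBB promoter and lacZ in the regulatory domain on the other side of the HoxD cluster, and keeps native II1. It gave 2 HOXA13 libraries titled E12.5 and 1 HOXD13 library titled E11.5, so for HOXD13 genotype and stage cannot be told apart, and there was no replicate. No control library without a HOX13 antibody was used in peak calling, so no background level per site was measured, and with no expression data the tissue label could not be set against markers. The 9 lists held 23939 to 117719 intervals from 36.9 to 65.5 M read ends. The shortest was wt HOXD13 replicate 1 and the longest the 542 HOXD13 list. The end of chromosome 2, which holds Sema6d, was read in wt lists only. All 6 wt lists lacked a summit at the insertion site and all 3 542 lists had 2 there.

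Sequences of 50 bp to either side of the median main summit are shown for the 8 leading sites that ranked highest in the wt lists. The leading site of a gene window was the site called in most wt lists, ties going to the higher rank. Further sites of the same gene window were left out, whatever their fold enrichment, so the 8 need not be the strongest sites near the family. The sequences are GRCm38.p6 (mm10) reference sequence in lower case, with capitals for the HOX13 core words CAATAAA and TCGTAAA on either strand.
Sema6b, beside the Hdgfl2 start, chr17:56079430-56079530, plus strand: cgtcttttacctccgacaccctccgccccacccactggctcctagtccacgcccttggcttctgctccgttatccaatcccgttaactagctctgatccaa
Sema5a, intron, chr15:32371156-32371256, plus strand: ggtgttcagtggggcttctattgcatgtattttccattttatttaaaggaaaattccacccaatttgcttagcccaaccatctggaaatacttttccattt
Plxnc1, intron, chr10:94816558-94816658, plus strand: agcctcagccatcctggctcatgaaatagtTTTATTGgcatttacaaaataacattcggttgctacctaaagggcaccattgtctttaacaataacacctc
Nrp1, intron, chr8:128441810-128441910, plus strand: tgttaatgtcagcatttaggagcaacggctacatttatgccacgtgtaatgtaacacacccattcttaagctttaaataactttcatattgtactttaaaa
Sema3b, intron of Hyal2, chr9:107568780-107568880, plus strand: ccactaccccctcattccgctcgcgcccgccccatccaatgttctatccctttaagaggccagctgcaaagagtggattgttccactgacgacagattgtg
Sema3a, own coding start, chr5:13398800-13398900, plus strand: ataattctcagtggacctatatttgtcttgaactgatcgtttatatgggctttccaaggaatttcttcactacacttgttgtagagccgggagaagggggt
Sema4a, intergenic, chr3:88510242-88510342, plus strand: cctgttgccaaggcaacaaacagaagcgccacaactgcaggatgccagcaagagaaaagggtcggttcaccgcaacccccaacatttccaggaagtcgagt
Sema3e, intron, chr5:14090066-14090166, plus strand: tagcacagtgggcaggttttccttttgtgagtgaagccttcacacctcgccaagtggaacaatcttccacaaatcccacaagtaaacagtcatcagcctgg
Only the Plxnc1 sequence held a word within this distance. The letters on the plus strand are TTTATTG at chr10:94816588-94816594, which is CAATAAA on the minus strand. Main summits of the 6 libraries lay within 28 to 708 bp of each other at these 8 sites, the widest in Nrp1, so the printed stretch is not the summit of every library.

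Words were then searched at all sites called in all 6 wt lists. Of 58 sites called in all 6 wt lists, 12 (20.7%) held a word within 50 bp of the median summit. Of 13858 other sites called in all 6 lists, 1675 (12.1%) did. This difference was not tested. Over all intervals of each wt list, the ratio of member to other summits with a word was 0.978. All 12 sites held CAATAAA. The word with 10 bp on either side is shown for 11 of them, in 8 gene windows, read along the strand of the word. These sites were selected for holding the word, so their sharing it is set by the selection. The Sema6a site among the 12 is not printed.
Plxnc1, intron of Plxnc1, chr10:94816578-94816604, minus strand: ttgtaaatgcCAATAAAactatttcat
Plxnc1, intergenic, chr10:94991656-94991682, plus strand: actcaagattCAATAAAgagacgcagg
Sema5a, intron of Sema5a, chr15:32459973-32459999, minus strand: ggcggccaccCAATAAAgaacaacgca
Sema6d, intron of Sema6d, chr2:124378272-124378298, plus strand: atatatcaatCAATAAAgtaaatgtag
Sema6d, intron of Sema6d, chr2:124628764-124628790, plus strand: ttttaaaagcCAATAAAgtctagtgca
Sema4a, exon of Slc25a44, chr3:88410495-88410521, plus strand: tttaggggctCAATAAAaacttttaat
Sema6c, exon of Gabpb2, Gm16740, chr3:95217737-95217763, plus strand: gaaatggaggCAATAAAatggcggacc
Sema3d, intron of Sema3d, chr5:12412859-12412885, plus strand: acttcatctgCAATAAAagtcagaaac
Sema3a, intron of Sema3a, chr5:13508767-13508793, plus strand: ttgcaaaaacCAATAAAgaattctctt
Sema3a, intergenic, chr5:13629055-13629081, minus strand: tacagcatttCAATAAAtcctcctcca
Nrp1, intergenic, chr8:128327467-128327493, minus strand: ccagaaaaagCAATAAAagtttatgga
An A or a G followed the word in 10 of the 11 stretches, which was counted after they were seen. The rate at other CAATAAA words was not taken, so this is a description only. Of the 12 sites, 7 lay in an intron of the named gene, and the Sema4a and Sema6c sites lay in exons of the neighbours Slc25a44 and Gabpb2. The 12 sites had median fold enrichments of 4.14 to 7.65 over the 6 libraries, the highest at the Plxnc1 intron.

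HOX13 intervals were found near nearly every member. In all 6 wt lists, 27 of 31 members (87.1%) had an interval in the window, where 65.0% of all protein-coding genes did. The median member held 32.1 intervals per Mb of window (median of the 6 libraries), against 26.0 for all protein-coding genes, and 22 of 31 members lay above the latter value. Member windows were somewhat longer, with a median of 0.140 Mb against 0.117 Mb. Across the 31 members the number of intervals followed window length (Spearman's rho 0.73) and the number per Mb did not (rho 0.01), as a description over genes that share libraries.

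Counted over the joined windows, member windows held more intervals per Mb than the windows of all other protein-coding genes in each wt library. For HOXA13 the ratios were 1.36, 1.28 and 1.41, and for HOXD13 1.41, 1.32 and 1.49, all above 1. The mean ratio was 1.38 ± 0.0736 (SD, n = 6). In an exact permutation test that flips the sign of each library's log ratio, the two-sided p was 0.0312, the lowest value open to 6 libraries, and 0.0781 after adjustment over 5 tests. All 6 libraries read the same windows, so such a p describes agreement between libraries and not spread between genes. With same-numbered HOXA13 and HOXD13 libraries taken as 1 unit the ratio was the same and p = 0.25, the smallest for 3 units in this exact permutation test. Gene length and neighbouring genes differ between the groups of windows, and their part in the ratio was not tested.

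**Figure D1:**
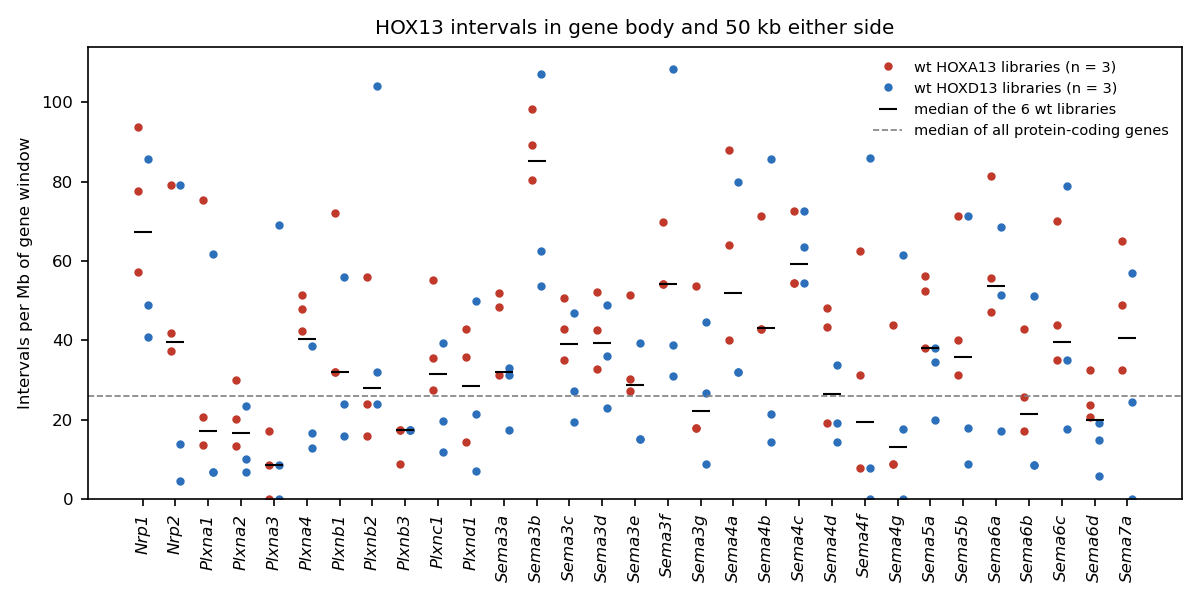
Intervals per Mb of gene window (y axis) for the 31 genes (x axis) in each wt HOXA13 (red) and wt HOXD13 (blue) library, with the median of 6 libraries as a bar and the median of all protein-coding genes (26.0) as a dashed line. Sema3b (85.2) and Nrp1 (67.4) had the highest medians and Plxna3 (8.65) the lowest, and for most genes the points of the antibodies overlap.

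The secreted class 3 ligands had a median of 39.1 intervals per Mb over 7 genes. Sema3b led all members with 85.2 per Mb. Its compact window held 11, 9 and 10 HOXA13 intervals and 7, 12 and 6 HOXD13 intervals, but 8 other coding genes start in it and none of its sites in all 6 lists lay in the Sema3b gene body. Sema3a had the highest number of sites in all 6 lists of any member, 7 of its 38 merged sites, 4 of them in its gene body. Its window of 0.577 Mb was among the longest, and its 32.1 intervals per Mb equalled the median of all members. It held 28, 18 and 30 HOXA13 and 10, 18 and 19 HOXD13 intervals, with no other coding start in its window. Sema3d, Sema3c and Sema3e are also alone in their windows. They had 4, 3 and 3 sites in all 6 lists, and medians of 39.3, 39.1 and 28.7 intervals per Mb. All 4 of the Sema3d sites were in its gene body. Sema3f and Sema3g had 1 such site each, outside their gene bodies, at 54.3 and 22.2 intervals per Mb.

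The transmembrane class 4 ligands, among them Sema4a and Sema4d with roles in immune cells, had a median of 34.7 intervals per Mb and spanned 13.1 to 59.2. Sema4c had 59.2 per Mb with little spread, at 8, 6 and 6 intervals for HOXA13 and 6, 8 and 7 for HOXD13. Sema4g had 13.1 per Mb, at 5, 1 and 1 for HOXA13 and 2, 7 and 0 for HOXD13. Sema4a and Sema4b had 51.9 and 43.0 per Mb, and Sema4d and Sema4f had 26.4 and 19.5. Of the 9 sites in all 6 lists near class 4 genes, 7 lay within 1000 bp of a coding start of some gene. Sema4f and Sema4g had none.

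The class 5 ligands Sema5a and Sema5b, large membrane proteins with thrombospondin repeats, had 38.1 and 35.8 intervals per Mb. Sema5a held 5 sites in all 6 lists, each within its own gene body and none at a coding start. Its intervals numbered 31, 21 and 29 for HOXA13 and 11, 19 and 21 for HOXD13, so that the antibodies touched only at 21. The lists differed in length, however. In the 20000 highest-ranked intervals of each list, Sema5a had 7, 10 and 13 for HOXA13 and 8, 6 and 12 for HOXD13. These counts overlap. Among class 6 ligands, which signal through A-type plexins, Sema6a had 53.6 per Mb and Sema6d 19.9 in the longest window of all (0.678 Mb). Both had 3 sites in all 6 lists. Sema6c and Sema6b had 39.6 and 21.3 per Mb. Sema7a, the GPI-anchored member that also binds integrins, had 40.7 per Mb but no interval in wt HOXD13 replicate 1.

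The 9 plexin receptors had a lower median, 27.9 intervals per Mb, near that of all genes. Plxna4, a receptor for class 3 and class 6 ligands, had the highest value of 40.4. It held 28, 23 and 26 HOXA13 intervals against 7, 21 and 9 for HOXD13, and this order was seen in 2.40% of all protein-coding genes and in 2 members, Sema6d being the other. The lists differed in length, and among the 20000 highest-ranked intervals of each list Plxna4 had 3, 5 and 7 for HOXA13 and 4, 3 and 4 for HOXD13, which overlap. Plxnc1, the Sema7a receptor, and Plxnb1, a Sema4d receptor, had 31.5 and 32.1. Plxnd1, Plxnb2, Plxnb3, Plxna1 and Plxna2 had 28.5, 27.9, 17.3, 17.1 and 16.7. Plxna3 had 8.65 per Mb, at 2, 1 and 0 intervals for HOXA13 and 0, 8 and 1 for HOXD13. Plxna1, Plxna3 and Plxnb2 had no site called in all 6 lists, and Plxnb3 had 1, at the start of another gene in its window.

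The neuropilins Nrp1 and Nrp2 had unlike records. Nrp1 held 23, 19 and 14 HOXA13 and 10, 21 and 12 HOXD13 intervals, 67.4 per Mb, with 4 sites in all 6 lists. No other coding gene starts in its window, and 3 of the 4 sites were within the gene. Nrp2 held 17, 9 and 8 HOXA13 and 1, 17 and 3 HOXD13 intervals, 39.5 per Mb, and not 1 of its 27 merged sites was in all 6 lists. The wt HOXD13 list with 1 Nrp2 interval was also the shortest.

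Joined over the 6 wt lists, intervals made 608 merged sites in the member windows out of 138528 in the genome. Of these, 58 (9.54%) were called in all 6 lists, where 10.0% of all sites were, and 289 (47.5%) in 1 list, against 50.6%. By position 393 of the 608 lay in introns, 152 between genes and 63 in exons, and 106 lay within 1000 bp of some coding start. Sites in all 6 lists had a median fold enrichment of 5.24 and sites in 1 list of 2.75. Words were found at 12 of the former (20.7%) and at 9 of the latter (3.11%). Among the 58, words stood at 10 of 41 sites away from coding starts and at 2 of 17 sites near one. Positions, and words at sites in 1 list or by distance from a start, were not counted over all sites of the genome. They are therefore not shown to be particular to these genes.

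**Figure D2:**
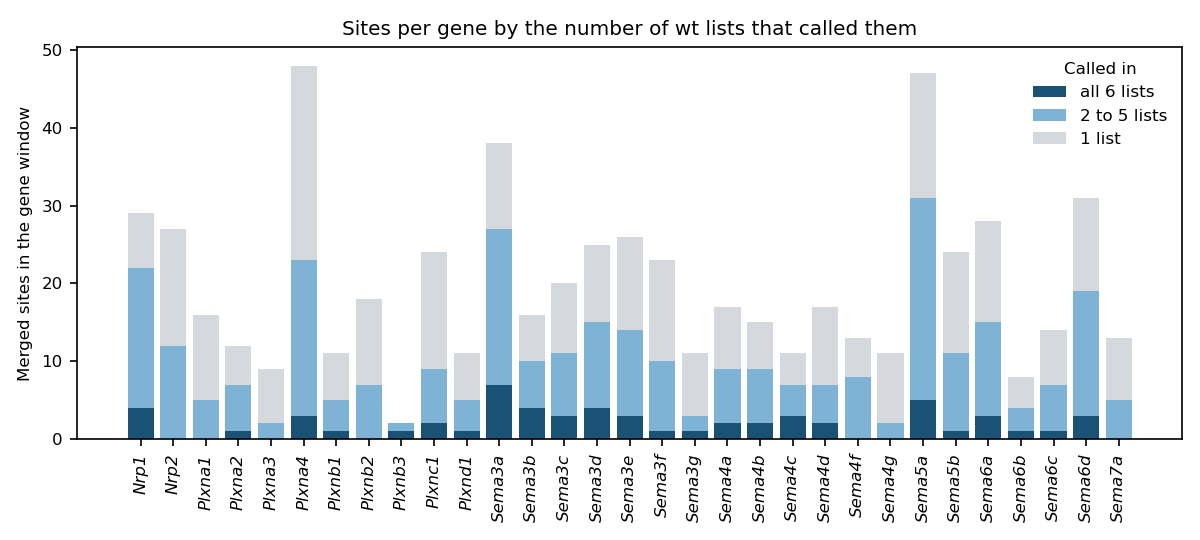
Number of merged sites per gene window (y axis) for the 31 genes (x axis), split by whether all 6, 2 to 5 or 1 of the wt lists called them. Plxna4 (48) and Sema5a (47) had the most sites and Sema3a the most in all 6 lists (7), while 7 genes had none in all 6.

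Summits were then counted at the members' own start sites. The authors held a CUT&RUN peak over the HBB promoter of the transgene to be likely non-specific nuclease signal. Whether start-site summits hold such signal was not tested. A summit within 1000 bp of a coding start was called in all 6 wt lists at 4 of 31 members (12.9%), where 19.7% of all protein-coding genes had one. In at least 1 list 28 of 31 members had such a summit, where 63.0% of all protein-coding genes did. The 4 were Sema3a, Sema3c, Sema4c and Sema6d, all ligands, as 20 of the 31 members are. At the Sema3c start, 254 bp upstream, fold enrichments were 13.4, 11.6 and 3.96 for HOXA13 and 5.57, 10.2 and 3.74 for HOXD13. The Sema3a site 459 bp upstream of a coding start gave 12.2, 11 and 4.26 for HOXA13 and 4.80, 8.47 and 4.10 for HOXD13. At Sema6d the values were 7.13, 7.29 and 3.81 and then 4.67, 6.11 and 3.69. Sema4c was lowest, at 4.89, 3.38 and 2.37 and then 3.93, 5.44 and 3.19. Replicate 3 was the lowest HOXA13 library at all 4 starts. None of the 4 held a word within 50 bp of the median summit. With a fold enrichment of at least 5 in each list, the count fell from 4 to 0, and the share of all genes at this cut was not taken.

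The highest-ranked site in the windows was not at a member gene. It lay in the Sema6b window 154 bp from the start of Hdgfl2, with fold enrichments of 16.7, 13.7 and 9.51 for HOXA13 and 13.0, 15.1 and 10.7 for HOXD13. In the median library only 0.113% of intervals had a higher −log10 p. Pileups there were 149 to 890 overlapping read ends for HOXA13, the lowest with an exact Poisson 95% interval of 126 to 175, which covers counting error only. The Sema3b (287 bp from the Hyal2 start), Sema4a (6957 bp from an Lmna start) and Sema4c (intron of Cnnm3) leading sites also lay nearer to a neighbour's start than to the member's. Their fold enrichments ran from 4.61 to 9.12, 4.73 to 10.5 and 3.03 to 12.2 over the 6 wt libraries.

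Leading sites within members themselves were intronic in Sema5a, Plxnc1, Nrp1 and Sema3e. The Sema5a site (chr15:32370519-32371902), 126393 bp into the gene, had 11.9, 10.6 and 6.89 for HOXA13 and 6.37, 7.33 and 5.86 for HOXD13. The Plxnc1 site (chr10:94816028-94817061), which holds the word shown above and lies slightly nearer to a start of Cep83 (127954 bp) than to its own (128227 bp), had 12.6, 11.9 and 6.52 and then 8.05, 7.24 and 3.85. For both genes the HOXA13 values in replicates 1 and 2 were above all HOXD13 values and replicate 3 was among them. The Nrp1 site (chr8:128441238-128443060) had 9.13, 9 and 4.97 and then 5.83, 6.20 and 4.76. The Sema3e site (chr5:14089650-14091068) had 13.2, 9.47 and 4.96 and then 5.74, 10.2 and 3.47. At these sites, too, the antibodies overlapped.

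**Figure D3:**
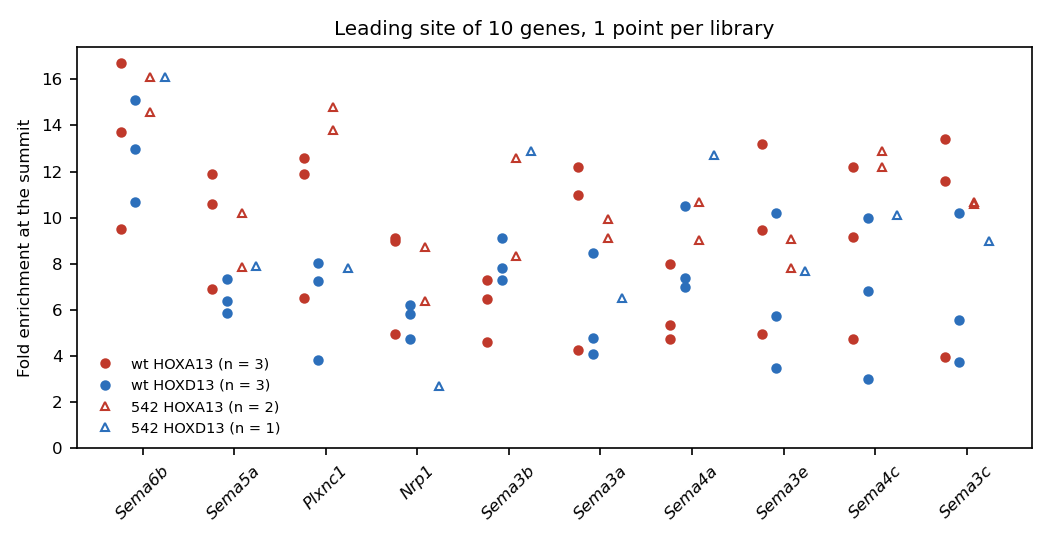
Fold enrichment at the summit (y axis) of the leading site of 10 gene windows (x axis), 1 point per library, filled circles for wt and open triangles for 542, red for HOXA13 and blue for HOXD13. The Sema6b window site is the highest of the 10 in each wt library (9.51 to 16.7), and the ranges of wt HOXA13 and wt HOXD13 overlap at all 10 sites.

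Whether HOXA13 and HOXD13 differ near these genes was asked at the level of lists, genes and sites. Member intervals made up 0.444, 0.419 and 0.432% of the HOXA13 lists (0.432% ± 0.0122, SD, n = 3) and 0.472, 0.449 and 0.463% of the HOXD13 lists (0.461% ± 0.0116, SD, n = 3). Every HOXD13 share was above every HOXA13 share, yet the ratio was only 0.936 (two-sided exact permutation test, p = 0.1, the smallest that 3 against 3 allows, adjusted p = 0.167). In pairs of same-numbered libraries the exact permutation p was 0.25, also the smallest possible.

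By gene, intervals were counted among the 20000 with the highest −log10 p of each list, so that list length was equal. Sema6d had more in every HOXA13 list (6, 7 and 8) than in any HOXD13 list (3, 3 and 5), which 0.879% of all genes had. Sema3c had more in every HOXD13 list (4, 4 and 5) than in any HOXA13 list (3, 3 and 2), which 5.70% of all genes had. Both are 1 of 31 members. The genes changed with the cut, being Plxna4 against Sema3f and Plxnb2 for shares of whole lists, and Plxnd1 against Sema6a in the top 10000.

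By site, 13 of 608 member sites (2.14%) were in all 3 HOXA13 lists and no HOXD13 list, beside 1.32% of all sites. They were 4 in Plxna4, 3 in Sema5a, 2 each near Sema3a and Sema6d and 1 each near Nrp1 and Sema4d. The highest was a Sema5a intron site at chr15:32553596-32554527 with a word, at 7.26, 5.80 and 3.30. The 1 site in all HOXD13 lists alone (0.164%, against 0.0318% of all sites) was at the Sema4d start, chr13:51793380-51793891, at 3.6, 3.47 and 5.05. Such counts depend on list length, and the HOXD13 lists were shorter on the whole. In the top 20000 of each list, 3 sites were found with HOXA13 alone (1.60% of 187, against 1.45% of all) and 2 with HOXD13 alone (1.07%, against 1.20%). All 5 were called with the other antibody in at least 1 whole list. The HOXA13 group held an intron site of Sema3d with a word (7.82, 6.30 and 4.91, and 3.12 in HOXD13 replicate 3).

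Site heights were compared at sites called in all 6 wt lists with limma, after centring each library on the median site. Centring takes out a shift common to all sites, which was 0.31 in log2 towards HOXA13, so only differences relative to other sites are compared. A lower site can come from fewer bound cells or from less binding per cell, which bulk libraries cannot tell apart. Of 58 member sites, 0 were higher and 0 lower with HOXA13 at adjusted p under 0.05, where 0% and 0.00719% of 13916 sites were. At unadjusted p under 0.05 there were 7 of 58 member sites (12.1%), beside 13.5% of all sites. Log2 differences ran from -0.79 to 0.55 with a median of 0.02 and a median SE of 0.24, and 31 of 58 were positive. The smallest adjusted p by limma was 0.141, at the Sema4a window site near Lmna, with 8.00, 5.33 and 4.73 for HOXA13 and 7.37, 10.5 and 7.01 for HOXD13 (log2 difference after centring -0.79, SE 0.20). With replicate number as a block, limma called 2 member sites lower with HOXA13, this one (adjusted p = 0.00663) and the Sema3b window site at Hyal2 (-0.74, adjusted p = 0.0126), so 2 of 58 (3.45%) beside 5.56% of all sites. Without wt HOXA13 replicate 3 it called 2 (3.45%), beside 2.42% of all sites, and within replicates 1 and 2 it called 3 (5.17%), beside 5.09%. Replicate 3 of both antibodies had been read at another read length than replicates 1 and 2.

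The 542 line served to ask whether the sites near these genes, far from the insertion, differed. Reads of the 542 line were mapped to a mutant genome, so genotype and the genome used for mapping cannot be told apart. Without Sema6d, 55 sites were in all 6 wt lists, and 53 of them (96.4%) were in all 3 542 lists, where 92.8% of 13328 such sites in the genome were. Taken over the 9 lists, 6.54% of member sites and 6.41% of all sites were called in all 9. An intron site of Sema3e (chr5:14057118-14058235) was in no 542 list. A site in the overlap of Sema3b and Sema3f was missing from the 542 HOXD13 list only. Over the 9 lists, 16 of 810 member sites (1.98%) were in all 3 542 lists and no wt list, against 2.25% of all sites. Of these, 3 were in introns of Sema3e, the highest at chr5:14147193-14148132 with 6.13, 6.74 and 6.75. Such counts depend on list length, and the 542 lists were longer on the whole.

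Member intervals without Sema6d made up 0.438, 0.410 and 0.425% of the wt HOXA13 lists (0.425% ± 0.0140, SD, n = 3) and 0.406 and 0.396% of the 542 HOXA13 lists (0.401% ± 0.00692, SD, n = 2). The groups did not overlap and the wt to 542 ratio was 1.06 (two-sided exact permutation test, p = 0.200, smallest possible 0.1, adjusted p = 0.25). The direction turned at a fold enrichment of at least 5. The single 542 HOXD13 list had 0.449%, below the 0.477, 0.452 and 0.455% of the wt HOXD13 lists.

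At 123 member sites called in all 5 HOXA13 lists, limma called 0 higher and 0 lower in 542, where 0% and 0.00369% of 27075 sites were. Here too values were centred, which took out a median shift over all sites of 0.4 in log2 towards 542. At unadjusted p under 0.05 there were 12 of 123 (9.76%), beside 13.3% of all sites. The smallest adjusted p was 0.148, at a Sema3a window site (chr5:13091207-13092529) upstream of the annotated gene, with 3.62, 2.98 and 2.62 in wt and 8.90 and 7.53 in 542 (log2 difference after centring 0.97, SE 0.23). Both 542 values lay above all wt values. The Sema3d intron site that holds a word had 12.6, 9.73 and 4.85 in wt and 6.64 and 8.04 in 542, and these overlapped. Its log2 difference after centring was -0.66 (SE 0.25, adjusted p = 0.293 by limma), which the uncentred values do not give directly. Without wt HOXA13 replicate 3, limma called 14 of the 123 (11.4%), beside 10.5% of all sites, so the count of 0 depends on that library. With replicate number as a block, of which only 2 numbers are shared, limma called 22 (17.9%), beside 18.4% of all sites. Among them, by limma, were the Sema3a window site (adjusted p = 0.00218) and the Sema3d intron site (adjusted p = 0.000244). Whether wt and 542 libraries pair by number was not examined, and wt HOXA13 replicate 3 has no 542 library of its number. These calls therefore rest on an assumed pairing.

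**Figure D4:**
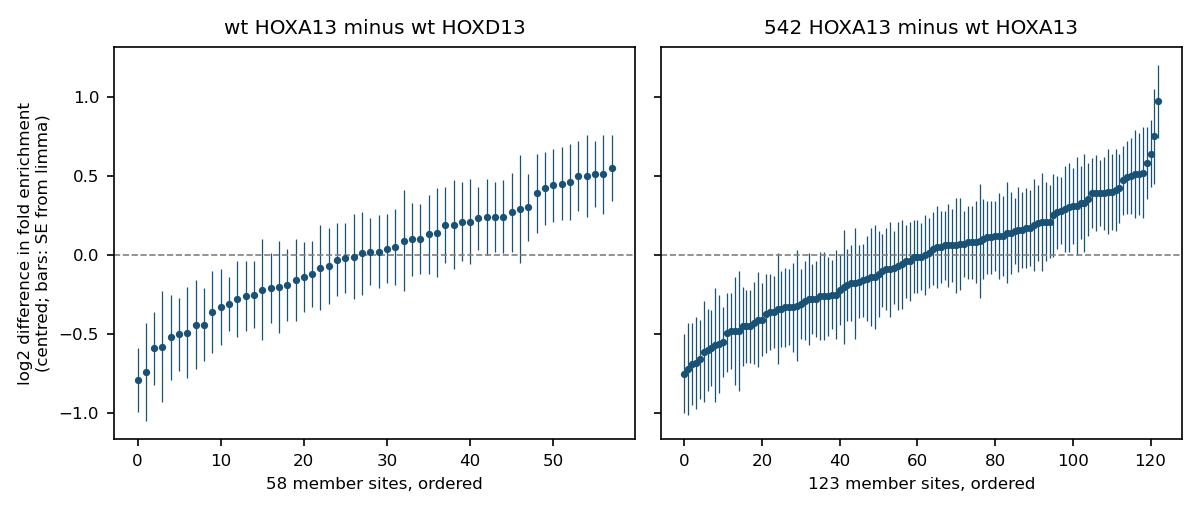
Log2 difference in centred fold enrichment (y axis) at each member site, ordered by size (x axis), for wt HOXA13 minus wt HOXD13 (left, 58 sites, 3 against 3 libraries) and 542 HOXA13 minus wt HOXA13 (right, 123 sites, 2 against 3 libraries), with SE from limma as bars. Differences run from -0.79 to 0.55 on the left and from -0.75 to 0.97 on the right. Centring sets the middle of all sites near 0. Before it, the median log2 difference over all sites was 0.31 on the left and 0.4 on the right.

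The HOX13 core words stood at member summits more often than in their flanks in each wt library. A word lay within 50 bp of the main summit in 9.07, 10.6 and 11.3% of member intervals for HOXA13 and 12.4, 7.25 and 5.17% for HOXD13. Windows of the same width 1000 bp to either side held one in 1.33 to 2.42%. Each library showed the excess, 4.83-fold on average on the log scale (n = 6; p = 0.0312 in the same exact permutation test, two-sided, adjusted p = 0.0781 over 5 tests). With libraries of the same number as 1 unit, this exact test gave p = 0.25, its smallest. All other summits of the same lists held a word in 7.26 to 10.9%, and the ratio of member to other summits was 0.978 (exact permutation test, p = 0.969, adjusted p = 0.969). The ratio was above 1 in 3 libraries and below 1 in 3.

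**Figure D5:**
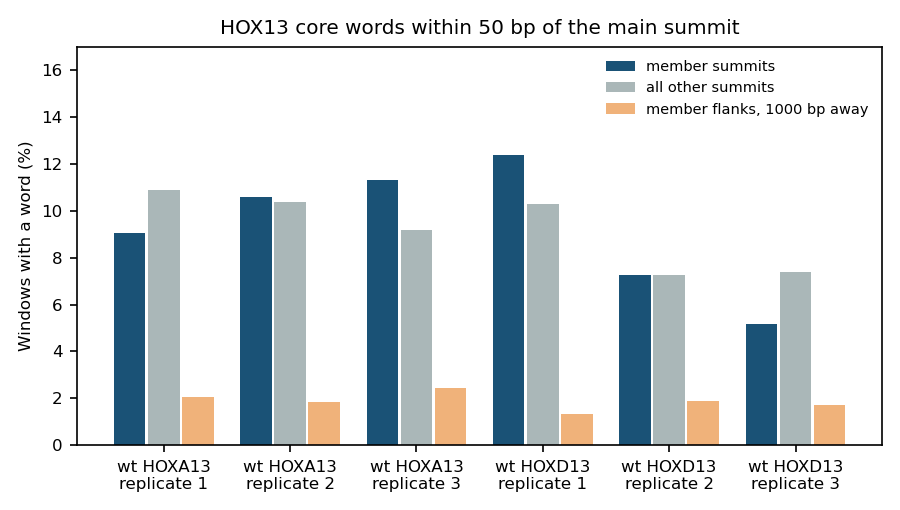
Percent of windows with CAATAAA or TCGTAAA within 50 bp (y axis) at member summits, at all other summits of the same list and at flanks 1000 bp from member summits, for each wt library (x axis). Member and other summits lie at 5.17 to 12.4% and flanks at 1.33 to 2.42% in every library.

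Genes that act with these families were taken from a list of 40, which holds co-receptors, cytoplasmic effectors and other partners. An interval in all 6 wt lists was present at 31 of 40, beside 65.0% of all protein-coding genes, and a start-site summit in all 6 at 10 of 40, beside 19.7%. The median was 34.3 intervals per Mb, and 26 of 40 lay above the median of all genes. In the top 20000, 0 had more in every HOXA13 list and 1 had more in every HOXD13 list, beside 0.879% and 5.70% of all genes. The 5 with the most intervals per Mb were Rras (72.3), a small GTPase on which plexins act, the actin oxidases Mical1 (63.2) and Mical2 (59.2), Farp1 (60.3), a guanine nucleotide exchange factor, and Cd72 (55.5), a Sema4d receptor of B cells. Rras had 4 to 12 intervals per library and a start-site summit in all 6 lists.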

How the data were processed

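The genes, windows, pathway list and tests were chosen with earlier results of these data known. Groups came from sample titles. According to the submitters' processing notes and the methods, reads were trimmed with Cutadapt and mapped with Bowtie 2 to mm10 for wt and to a mutant genome for the 542 line, and peaks were called per library with MACS2 on both read ends, without a control. In the deposited lists, fold enrichment divides the pileup of a summit by the background that MACS2 estimated around it. The authors' −log10 p-values and −log10 q-values come from a Poisson test of that pileup. A deposited whole-number score derived from the −log10 q-value was not used. Sources differ on duplicates. A Picard step is named for removing them, whereas the printed command marks them and peak calling keeps every read, so whether duplicates entered the pileups is not settled; if kept, they raise them.

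Rows of a list that share both coordinates are summits of 1 interval, and the one with the highest −log10 p is its main summit. Intervals of different lists sharing at least 1 bp made 1 merged site. Annotation was GENCODE basic vM21, and coordinates are 1-based. Pileups were recovered from fold enrichment and −log10 p and were whole within 0.01 for at least 99.93% of summits. Single values were compared by two-sided exact permutation tests and adjusted over 5 tests (Benjamini-Hochberg). Log2 fold enrichments of sites in all lists compared were centred per library and tested with limma 3.58.1 in R 4.3.3 (trend and robust, adjusted p under 0.05 over all sites). The functions were tested on simulated data.

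All members are given with intervals per Mb or with counts per library. For each gene the site called in most wt lists was taken, ties going to the higher −log10 p rank, and the 10 that ranked highest were described. From limma, sites with adjusted p under 0.05 were to be named, and those with the smallest p are given in their place, chosen after their values were seen. Pathway genes are the 5 with the most intervals per Mb. The sites with words, the sites called with 1 antibody or genotype alone, and the start sites were likewise singled out after their values were seen.

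Same-numbered wt HOXA13 and HOXD13 libraries deviated together from their group means over 20310 sites, with correlations of 0.110, 0.143 and 0.348 for numbers 1, 2 and 3. The numbers were therefore taken to pair these libraries. HOXA13 replicate 1 correlated more with HOXD13 replicate 2 (0.219) than with replicate 1, so numbers 1 and 2 do not single out pairs. Libraries were made from pools of embryos.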

Additional observations from a re-analysis of the deposited data

How the results depend on the processing

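Values are log2 ratios or counts of members. At a fold enrichment of at least 5, the genotype share turned to -0.205 and the density ratio fell to 0.229 (exact permutation p = 0.0625). Members with an interval in all 6 wt lists fell to 9 and start sites to 0, and the shares of all genes at this cut were not taken. The ratio of member to other summits for words turned to 0.470 at this cut. The ratio to flanks could not be computed because a library had no word in the flanks. Member sites in all 6 lists were 33 of 187 (17.6%) in the top 20000, beside 7014 of 39115 in the genome. With main summits within 100 bp they were 21 of 835 (2.51%), beside 5532 of 189720. The number of merged sites changes with each setting, so these counts are not read as a loss particular to members. With a word window of 100 bp to each side, the ratio to other summits was 0.0462.

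With the replicate block, the density ratio stayed at 0.463 and the ratio to flanks at 2.27, and p rose to 0.25, the lowest for 3 units in an exact permutation test. The block raised limma calls among member sites from 0 to 2 for the antibodies and to 22 for the genotypes (17.9% of 123, beside 18.4% of all sites), where only 2 numbers are shared. Within replicates 1 and 2, limma called 3 for the antibodies (5.17%, beside 5.09% of all sites). Without centring, limma called 0 member sites in either comparison. For the genotypes, 23 of the 123 then had unadjusted p under 0.05, and the share over all sites was not taken. An alternative added after seeing the data, within replicates 1 and 2, gave 0.426 for density, 2.46 against flanks and 0.00549 against other summits. The cause of these changes was not tested.

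With 1 library left out, the density ratio was 0.440 to 0.483 and the ratio to flanks 2.08 to 2.41, at p = 0.0625, the lowest that 5 libraries allow in an exact permutation test. The ratio to other summits ran from -0.0985 to 0.0640, with values of 0.0146 and 0.0640 above 0. Calls at member sites were 0 to 2 for the antibodies and 0 to 14 for the genotypes, the highest of each without wt HOXA13 replicate 3.

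The number of intervals of a gene moved beyond its spread between libraries for 12 of 31 genes with 10 kb windows, 12 with 100 kb windows, 25 at a fold enrichment of at least 5 and 22 in the top 20000, where fewer intervals are counted. Depth was known only through recovered pileups, and a site missing from a short list may have fallen under its threshold.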
